A study of Rattus norvegicus with 2 samples.

Results

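The genes described here gave some of the brightest signals on the rat prostate arrays and had treatment and lobe ratios within set limits around those of the average gene. They were selected on measured values. A gene was called bright when its net signal was among the 200 highest in each of the 4 channels, and 142 genes were bright. Net signal is the spot intensity less the mean of the blank spots of that channel. Of the bright genes, 131 (92.3%) also had a log2 ratio of OBP-801 over saline between -0.8 and 0.8 in both lobes and a log2 ratio of lateral over ventral prostate between -1 and 1 in saline RNA. These 131 are called the bright, steady genes, out of 9013 genes with a net signal of at least 30 units in all 4 channels (the compared genes) and 20174 genes with a probe. Their brightness and their limited ratios are therefore how they were found and are given below as a description, without a test.

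The RNA came from ventral and lateral prostate of male TRAP rats, transgenic animals in which SV40 T antigen, driven by the prostate-specific probasin promoter, gives rise to prostate tumours. The tissue was labelled as prostate cancer tissue in every group, and all rats received a control diet. OBP-801 rats were given the compound intravenously 2 times a week for 8 weeks from 6 weeks of age, at 1 mg/kg per the treatment protocol (other labels give 1 mg and no weight basis), and the others were given saline on the same schedule. Each lobe had 1 two-colour array, with OBP-801 RNA in Cy3 and saline RNA in Cy5. The groups are thus lateral OBP-801, lateral saline, ventral OBP-801 and ventral saline, with 1 channel each. How many rats each RNA came from is not given in the sources used here. No array with exchanged dyes was analysed, so treatment and dye cannot be told apart for any gene, and neither can lobe and array. The RNA is from bulk tissue, in which fewer cells of a type and less RNA per cell cannot be told apart.

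OBP-801 inhibits histone deacetylases, enzymes that remove acetyl groups from the tails of histones and from other proteins. Inhibitors of this class are known to raise some transcripts and lower others. In mammalian tissues the most abundant messenger RNAs commonly encode ribosomal proteins, translation factors, mitochondrial and cytoskeletal proteins and, in prostate epithelium, secreted proteins. Whether the bright, steady genes belong to these classes could not be read from the sources used here. The probes carry Ensembl rat gene IDs, of which 0 of 20174 could be paired with a symbol, so no gene role, pathway, protein or promoter is given and the labelled tissue was not checked against marker genes. A further limit concerns the word abundant. Probes differ in how strongly they bind and label, so the order of signal between probes is an order of brightness and not of transcript number.

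The precision is limited by the number of arrays. The error available is technical, from 24 repeat spots of each of 2 positive controls, whose signals lay in the range of the bright genes. The log2 ratio of OBP-801 over saline averaged 0.32 ± 0.06 (SD, n = 24 spots) for the first control and -0.16 ± 0.08 for the second on the lateral array. On the ventral array it averaged 0.11 ± 0.08 and -0.10 ± 0.12. For lateral over ventral in saline RNA the means were 0.58 ± 0.14 and -0.03 ± 0.14. The limit of 0.8 corresponds to 1.74-fold and that of 1 to 2-fold, which are wide beside these SDs, so steady here allows differences well beyond the spread of repeat spots. These SDs leave out variation between animals.

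The bright, steady genes carried a large share of all signal. Their summed net signal was 26.3% of that of all gene probes in lateral OBP-801 RNA, 26.0% in lateral saline RNA, 22.6% in ventral OBP-801 RNA and 23.5% in ventral saline RNA, although they made up 0.649% of the genes. The 15 brightest of them alone held 5.34% in lateral OBP-801, 5.94% in lateral saline, 5.06% in ventral OBP-801 and 5.81% in ventral saline RNA. In lateral OBP-801 RNA their net signals had a lowest value of 12232, a median of 24084 and a highest value of 62920 units. In lateral saline RNA these values were 6047, 10980 and 51302 units. Signals were higher in Cy3, which held OBP-801 RNA on both arrays, and median centring of the ratios removes the difference of the average gene. In ventral OBP-801 RNA the lowest, median and highest values were 12839, 21006 and 65477 units, and in ventral saline RNA they were 5600, 9744 and 44498 units.

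**Figure D1:**
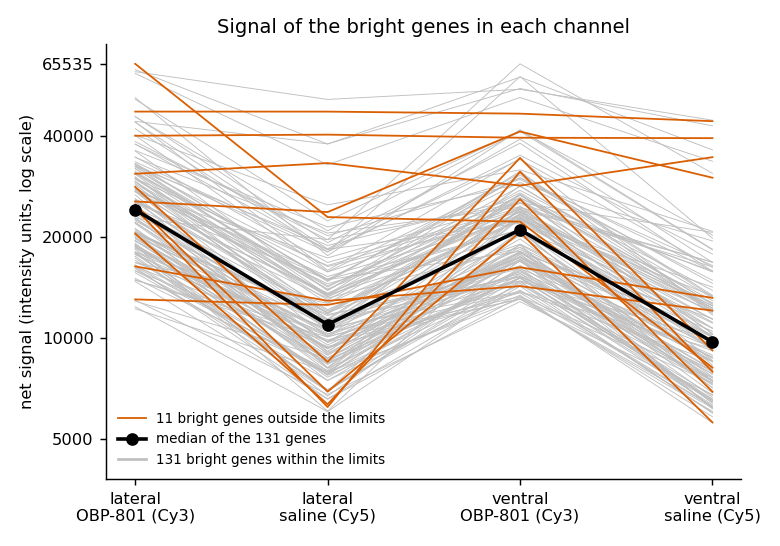
Net signal (intensity units, log scale) of each bright gene in the 4 channels, drawn as 1 line per gene. The 131 bright, steady genes are grey, their median is black and the 11 bright genes outside the limits are orange. The medians of the steady genes were 24084, 10980, 21006 and 9744 units. Their lines differed in slope, with centred log2 treatment ratios of -0.76 to 0.70 in the lateral and -0.77 to 0.56 in the ventral lobe.

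The selection required every member to be among the brightest in all channels with limited ratios, so the likeness of its channels described next is largely set by that choice. Of the 10 brightest genes of each channel, 5 were common to all 4, and 4 of these were steady genes. Of the 25 brightest, 14 were common, 12 of them steady, and of the 100 brightest 66 were common, 62 of them steady. The difference between a steady gene's best and worst rank over the 4 channels had a lowest value of 3, a median of 40 and a highest value of 123. It was under 20 for 32 genes and over 100 for 6 genes. Across the 131 genes the log2 net signals of lateral and ventral saline RNA had a Pearson correlation of 0.934, and those of lateral and ventral OBP-801 RNA one of 0.862. Within the lateral array OBP-801 and saline RNA had a correlation of 0.863, and within the ventral array 0.890. The points of each pair share either a dye or an array, genes are not independent replicates, and nothing is read from these values.

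The brightest member by mean log2 signal was ENSRNOG00000034234. It had 62041 units in lateral OBP-801 RNA against 51302 in lateral saline RNA, and 54988 in ventral OBP-801 RNA against 44498 in ventral saline RNA. After centring, which subtracts the higher Cy3 level of the average gene, the treatment ratio in log2 was -0.69 (lateral) and -0.75 (ventral), near the lower limit on both arrays. After loess normalization, which removes a trend of the ratio with brightness, it was -0.93 and -0.88, past the limit. The second, ENSRNOG00000030700, had 62920 units in lateral OBP-801 RNA against 37796 in lateral saline RNA, and 59772 in ventral OBP-801 RNA against 36301 in ventral saline RNA, with ratios of -0.23 and -0.34. Both were among the 5 brightest, of which 4 lay below 0 on each array, with a median ratio of -0.23 (lateral) and -0.43 (ventral). The remaining members are described by their place in the order of mean brightness.

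The third brightest gene resembled the first. It had 44152 units in lateral OBP-801 RNA against 37842 in lateral saline RNA, and 55297 in ventral OBP-801 RNA against 42804 in ventral saline RNA, with ratios of -0.74 and -0.69 (-0.97 and -0.82 after loess normalization, also past the limit). The fourth had 61299 units in lateral OBP-801 RNA against 32799 in lateral saline RNA, and 51985 in ventral OBP-801 RNA against 33590 in ventral saline RNA. Its ratio of -0.43 in the ventral lobe was farther from 0 than its lateral ratio of -0.06. The fifth was the one with the lowest lateral over ventral ratio, -0.58, and had treatment ratios of 0.01 (lateral) and 0.02 (ventral). It gave 38454 units in lateral OBP-801 RNA against 19623 in lateral saline RNA, and 65477 in ventral OBP-801 RNA against 30920 in ventral saline RNA. Its ventral OBP-801 spot read 65535 units, the detector ceiling, so that value is a lower bound and the ventral ratio with it.

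The next genes in brightness were mixed in direction. The sixth had 51350 units in lateral OBP-801 RNA against 22325 in lateral saline RNA, and 41421 in ventral OBP-801 RNA against 20255 in ventral saline RNA, with ratios of 0.24 and -0.03. The seventh had 45572 against 20857 units in lateral OBP-801 and saline RNA, and 41231 against 18316 units in ventral OBP-801 and saline RNA, with ratios of 0.16 and 0.11. The seventh thus stayed within 0.2 of 0 on both arrays, and the sixth did so only on the ventral array. The one ranked 10 had 40215 against 24914 units in lateral OBP-801 and saline RNA, and 31664 against 20780 units in ventral OBP-801 and saline RNA. Its ratios of -0.27 and -0.45 lay below 0 on both arrays. The 5 genes that followed, the eleventh to the fifteenth, had lateral ratios of 0.29, 0.28, 0.25, -0.21 and 0.08 and ventral ratios of 0.16, 0.21, -0.08, -0.49 and 0.01. After loess normalization the ratios of all 15 genes were lower on both arrays, for example 0.02 and -0.14 for the sixth and -0.04 and 0.002 for the seventh, so the sign of the small ones depended on the normalization.

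Very bright spots call for care with these ratios. Signals over 30000 units occurred for 36 of the 131 genes in lateral OBP-801 RNA, 4 in lateral saline RNA, 20 in ventral OBP-801 RNA and 5 in ventral saline RNA. The 36 genes above that level in any channel had median ratios of 0.16 (lateral) and -0.02 (ventral), and the other 95 had 0.13 and 0.04. Brighter members tended to have lower ratios, with a Pearson correlation of -0.26 on the lateral and -0.36 on the ventral array across the 131 genes. Among the 95 genes the correlations were -0.20 and -0.33. The scanner flagged 0 of the 131 genes, and only 1 of their readings, in ventral OBP-801 RNA, stood at the ceiling. Among the compared genes, 23 spots in lateral OBP-801 RNA, from 34556 units up, read as whole numbers. The highest reading there that was not whole was 33523 units. The other channels had the same break. Whole numbers were read for 19 spots in ventral OBP-801 RNA (from 34067 units), 7 in lateral saline RNA (from 32813) and 9 in ventral saline RNA (from 30023). The highest readings that were not whole were 31722, 24928 and 20796 units in these channels. Whether the whole-number spots were read in another way was not tested. The part of detector range in the low ratios of the brightest genes was not tested.

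The first comparison asked how the bright, steady genes stood in OBP-801 RNA relative to saline RNA in the lateral prostate. Their median log2 ratio was 0.14 with an SD of 0.28 over the 131 genes and a range of -0.76 to 0.70, beside a median of 0 and an SD of 0.42 over the compared genes. The ratio lay above 0 for 88 genes, but after loess normalization the median was -0.03 and 58 genes lay above 0. A small displacement of the whole list was therefore not a stable direction. At a threshold of 1.5-fold, 6 members were higher in OBP-801 RNA, where 6.81% of the compared genes were, and 3 were lower, where 7.16% were. The selection itself caps members at 1.74-fold, so nothing is read from these counts. The highest lateral ratios among members were 0.70, 0.67 and 0.66. The gene with 0.70 had 26000 units in lateral OBP-801 RNA against 8177 in lateral saline RNA.

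In the ventral prostate the median ratio was 0.03 with an SD of 0.28 and a range of -0.77 to 0.56, beside an SD of 0.40 over the compared genes. The ratio lay above 0 for 70 genes, and for 55 after loess normalization, with a median of -0.06. Members at least 1.5-fold higher in OBP-801 RNA numbered 0, where 7.09% of the compared genes were, and 3 were at least 1.5-fold lower, where 5.81% were. The lateral and ventral ratios had the same sign for 109 of the 131 genes (83.2%), above 0 for 68 and below 0 for 41, beside 85.4% of the compared genes. They lay within 0.2 of each other for 101 (77.1%), beside 75.6% of the compared genes. The members were selected on these ratios, and their shares were close to those of the compared genes. Across the 131 genes the lateral and ventral ratios had a Pearson correlation of 0.863 and a Spearman correlation of 0.859, beside a Pearson correlation of 0.851 over the compared genes. The arrays share the dye orientation, so a dye preference of a probe would appear on both, and its part in this likeness was not tested.

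**Figure D2:**
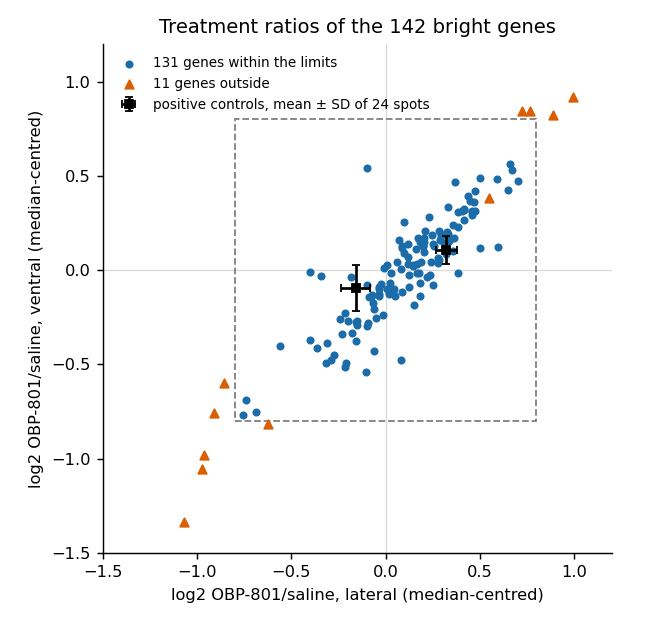
Median-centred log2 ratio of OBP-801 over saline in the lateral (x axis) and ventral (y axis) prostate for the 142 bright genes, with the limits of 0.8 as a dashed box and the 2 positive controls as squares (mean ± SD of 24 spots). The 131 bright, steady genes (circles) lie along the diagonal; of the 11 genes outside the limits (triangles), the 1 inside the box had a lateral over ventral ratio of 1.57.

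Some members differed between the lobes in their ratio by more than the control spots did. The eighth brightest gene had 32852 units in lateral OBP-801 RNA against 18031 in lateral saline RNA, and 60022 in ventral OBP-801 RNA against 19835 in ventral saline RNA. Its ratio was -0.10 in the lateral and 0.54 in the ventral lobe, a difference of -0.64 (-0.71 after loess normalization), and its ventral OBP-801 signal stood out. The ninth went the other way, with ratios of 0.60 and 0.12, a difference of 0.47 (0.38 after loess normalization). It had 51951 against 17592 units in lateral OBP-801 and saline RNA, and 41699 against 18380 units in ventral OBP-801 and saline RNA. The 23rd brightest gene had 34616 against 16792 units in lateral OBP-801 and saline RNA, and 24416 against 16298 units in ventral OBP-801 and saline RNA. Its ratios were 0.08 and -0.47, a difference of 0.55 (0.46 after loess normalization). For the controls the same difference averaged 0.21 ± 0.06 and -0.06 ± 0.10 (SD, n = 24 spots). Repeat spots of 1 probe do not measure the spread between probes. Over the compared genes the difference had an SD of 0.22 and a range of -6.03 to 1.82, beside an SD of 0.15 over the members. Larger differences than those described thus occurred among other genes. With 1 array per lobe the differences of the described genes were not tested. The eighth gene's OBP-801 spot read as a whole number on the ventral array (60080 units, with a local background of 45174). On the lateral array it did not (32915.8 units). For the 23rd gene the lateral OBP-801 spot read as a whole number (34680 units) and the ventral one did not (24473.8). For the ninth both did (52015 and 41757 units). The part of reading range in these differences was not tested. The 23rd gene was chosen after its values were seen.

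The second comparison set lateral against ventral prostate in saline RNA, where the bright, steady genes stood a little above the other genes. Their median log2 ratio of lateral over ventral was 0.25 with an SD of 0.22 and a range of -0.58 to 0.80, and 115 genes (87.8%) lay above 0. After normexp, loess and Aquantile normalization, the last of which equalises the distribution of signals between the arrays, the median was 0.04 and 76 genes lay above 0. With normexp and loess but median centring in place of Aquantile it was 0.26, and with normexp and median centring alone it was 0.22, so the lower value came with the Aquantile step. In OBP-801 RNA the median was 0.43 with an SD of 0.27 and a range of -0.69 to 1.00, and 118 genes lay above 0, with 113 above 0 in both RNAs. The 8871 compared genes that were not bright had a median of -0.004 in saline RNA. At least 1.5-fold higher in lateral saline RNA were 6 members, where 3.67% of the compared genes were, and at least 1.5-fold lower were 0 members, where 5.15% were. Lobe and array cannot be told apart, and the first positive control, at 0.58, stood above most members.

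**Figure D3:**
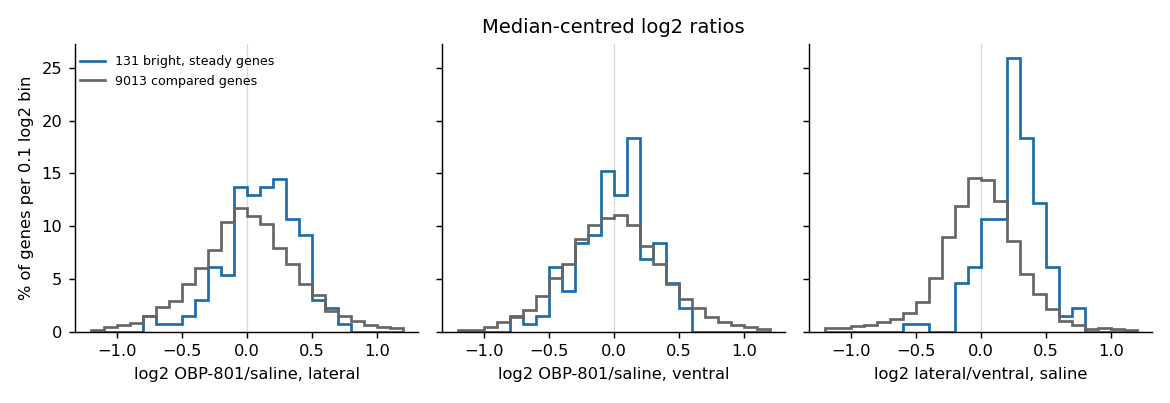
Share of genes (%) per bin of 0.1 in the median-centred log2 ratio, for OBP-801 over saline in the lateral and ventral prostate and for lateral over ventral in saline RNA. Blue outlines are the 131 bright, steady genes and grey outlines the 9013 compared genes; the blue outline is displaced to the right in the lobe panel, with a median of 0.25, which was 0.04 after normexp, loess and Aquantile normalization.

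The members with the highest lobe ratios were the 33rd and the 104th in brightness. The 33rd had 33459 against 21979 units in lateral and ventral OBP-801 RNA, and 18374 against 11156 units in lateral and ventral saline RNA. Its lobe ratio was 0.80 (0.51 after Aquantile normalization), whereas its treatment ratios were -0.10 (lateral) and -0.08 (ventral). The 104th had 23155 against 13076 units in lateral and ventral OBP-801 RNA, and 9734 against 6057 units in lateral and ventral saline RNA, with a lobe ratio of 0.76 (0.65 after Aquantile normalization). In both genes every lateral signal exceeded the ventral signal of the same dye. The opposite pattern was seen in the 21st gene, which had almost equal levels in the lobes, a ratio of 0.01, and treatment ratios of -0.76 (lateral) and -0.77 (ventral). After loess normalization these were -0.94 and -0.87, past the limit, and after Aquantile normalization its lobe ratio was -0.27. It had 22717 against 19650 units in lateral OBP-801 and saline RNA, and 25258 against 20638 units in ventral OBP-801 and saline RNA.

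The narrowest gene over all 3 ratios was the 63rd in brightness, with treatment ratios of -0.01 (lateral) and 0.01 (ventral) and a lobe ratio of -0.04. After loess normalization its treatment ratios were -0.17 and -0.08, and after Aquantile normalization its lobe ratio was -0.28, so its place depended on the processing. It had 20271 against 10447 units in lateral OBP-801 and saline RNA, and 23890 against 11381 units in ventral OBP-801 and saline RNA. The next 3 were the 24th (0.13, -0.09 and 0.09 for lateral treatment, ventral treatment and lobe), the 108th (0.12, 0.14 and 0.11) and the 129th (-0.03, -0.14 and 0.08). In all, 13 genes lay within 0.2 of 0 in all 3 ratios, and 45 did so in both treatment ratios. After loess and Aquantile normalization 36 did so in all 3 ratios and 58 in both treatment ratios. At either setting most members were thus not flat at that tighter limit.

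Of the 142 bright genes 11 fell outside the limits, 4 of them higher with OBP-801 after centring, 6 lower and 1 by its lobe ratio. Several of the 11 had spots over 30000 units, and the part of detector range in their ratios was not tested. The brightest of the lower ones had 47202 units in lateral OBP-801 RNA against 47194 in lateral saline RNA, and 46538 in ventral OBP-801 RNA against 44202 in ventral saline RNA, with ratios of -0.96 and -0.98. The gene with the lowest ratios, -1.07 and -1.34, had 30831 against 33174 units in lateral OBP-801 and saline RNA, and 28426 against 34542 units in ventral OBP-801 and saline RNA. The brightest of the lower genes thus had nearly equal signals in both dyes, and the gene with the lowest ratios had more signal in Cy5 on both arrays. The average gene was brighter in Cy3. The highest, with ratios of 1.00 (lateral) and 0.92 (ventral), had 24287 against 6238 units in lateral OBP-801 and saline RNA, and 31287 against 7942 units in ventral OBP-801 and saline RNA. The gene outside by its lobe ratio had 65471 against 22204 units in lateral and ventral OBP-801 RNA, and 22917 against 8173 units in lateral and ventral saline RNA. Its lobe ratio was 1.57 (1.46 after Aquantile normalization), and its lateral OBP-801 spot stood at the detector ceiling.

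Members and excluded genes lay close together at some limits and apart at others. In the lateral treatment ratio the members closest to the limits had 0.70, 0.67 and 0.66 at the upper side and -0.76, -0.74 and -0.69 at the lower side. The nearest bright genes outside had 0.89 and 1.00, and -0.86, -0.91 and -0.96. In the ventral ratio the members closest to the limits had 0.56, 0.54 and 0.53, and -0.77, -0.75 and -0.69. The nearest genes outside had 0.82, 0.84 and 0.85, and -0.82, -0.98 and -1.05. In the lobe ratio the 3 highest members had 0.80, 0.76 and 0.72, with 1 bright gene outside at 1.57 and none below the lower limit. At the rank limit of 200 the worst ranks of the last members were 193, 194 and 198, and those of the first genes beyond it were 201, 201 and 203.

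Being within the limits was common at any brightness. Of all compared genes 90.4% met the 3 limits, beside 92.3% of the bright genes. In 10 equal bins of brightness, from the dimmest to the brightest, the share was 88.9%, 86.8%, 87.5%, 88.7%, 91.1%, 93.0%, 92.8%, 93.0%, 93.0% and 89.7%. Among the 175 genes whose worst rank was 201 to 400 it was 89.1%, and among the 670 genes of worst rank over 800 and up to 1600 it was 96.1%. Ratios within the limits were thus not particular to the bright genes.

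The authors' deposited table of log2 values listed all 131 genes on both arrays. Its values equalled the ratios given here less a constant of 0.04 (lateral) and 0.02 (ventral). In the authors' deposited table the members had a median of 0.10 with a range of -0.80 to 0.66 (lateral) and a median of 0.002 with a range of -0.79 to 0.54 (ventral).

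The rule used no positions, and the members were unevenly placed on the array. The probes lie in 24 blocks with genes in 9 grid rows each. Rows 6 and 8 held 40 members each, together 61.1% of the members and 24.7% of all genes, whereas rows 1 to 3 held 5 members among 7104 genes. The rule selects on signal, which differed by row over all genes. The median net signal in ventral saline RNA was 60.7 units in row 8, 44.1 in row 7 and 19.2 in row 6. In rows 1 to 3 it was 14.8, 13.1 and 11.4 units. Odd-numbered blocks held 87 members (66.4%) and even-numbered ones 44, at 50.3% of all genes in odd-numbered blocks. Of the 40 members in row 8, 36 lay in odd-numbered blocks. Gene IDs were uneven too: the number in the ID was 25000 or higher for 76 members (58.0%), beside 21.3% of the compared genes and 31.0% of all genes. These features were noticed in the data and no test was made, and whether probe design or print order differs between rows was not tested.

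**Figure D4:**
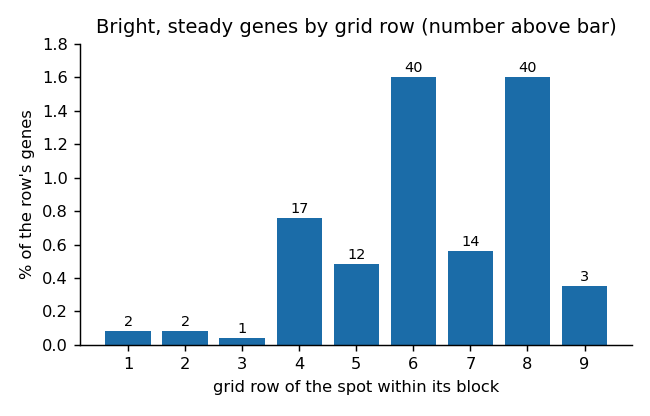
Share (%) of the gene probes in each grid row (1 to 9, within a block) that were bright, steady genes, with the number of such genes above each bar. Rows 6 and 8 held 40 each, and rows 1 to 3 held 2, 2 and 1.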

How the data were processed

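The 2 deposited scanner files give spot and local background intensity as medians for 635 nm (Cy5, saline) and 532 nm (Cy3, OBP-801), reconciled over 3 scanner gains, per the file headers. The authors' deposited table holds log2 ratios whose making no header describes. The image software is not named there. Here the mean of 5808 blank spots (5% trimmed at each end) was subtracted per channel, and log2 ratios were centred on their median over the 9013 compared genes. No local background was used. With 1 array per lobe no test was made, and results are values, counts and medians. The calculation was tested on simulated data. Named were to be the 15 brightest members, those nearest the limits, the 4 narrowest and 4 widest, and genes of 19 lists. With 0 symbols matched, the lists, tissue markers, promoters and proteins were not evaluated, and IDs are printed for 2 genes only. The members and lists were chosen with earlier results of these data known. The labels name different RNA kits in the protocol and the design text. Alternatives (other backgrounds, centrings, rank limits and windows) used limma 3.58.1 in R 4.3.3, with normexp (offset 50), loess and Aquantile. Python 3.11.15 with numpy 2.4.6, pandas 2.3.3 and scipy 1.17.1 did the rest.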

Additional observations from a re-analysis of the deposited data

Results flagged for a closer look

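In 22 of the 131 bright, steady genes the treatment ratio lay on opposite sides of 0 in the 2 lobes. The 2 ratios had the same sign for 83.2% of the members, beside 85.4% of the compared genes, so the shares were close. In 2 of the 22 genes both ratios were farther than 0.1 from 0. With a single array for each lobe, the difference between lobes was not tested.

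The local background intensity of the scanner files was left out of the results above. At the spots of the 131 genes it had a median of 12562 units in lateral OBP-801, 5128 in lateral saline, 9936 in ventral OBP-801 and 3762 in ventral saline RNA. At the blank spots the medians were 56.3 and 11.2 units (lateral OBP-801 and saline) and 53.0 and 13.5 units (ventral OBP-801 and saline). Over all gene probes they were 81.4 and 22.5 units (lateral OBP-801 and saline) and 78.0 and 23.0 units (ventral OBP-801 and saline). The local background of the members was a median of 51.2% of the spot itself in lateral OBP-801, 44.0% in lateral saline, 47.5% in ventral OBP-801 and 37.5% in ventral saline RNA. Over the compared genes it was 62.6% in lateral OBP-801, 52.5% in lateral saline, 59.0% in ventral OBP-801 and 48.8% in ventral saline RNA. The 468 gene spots next to members had a median net signal of 66.9 units in lateral OBP-801, 34.2 in lateral saline, 79.5 in ventral OBP-801 and 37.7 in ventral saline RNA. For 19575 other genes it was 39.8 units in lateral OBP-801, 19.8 in lateral saline, 48.6 in ventral OBP-801 and 22.9 in ventral saline RNA. These other genes were not matched to the neighbours by grid row. By row, the median net signal of all genes in ventral saline RNA ran from 11.4 units (row 3) to 60.7 (row 8), with 19.2 in row 6. The part of row in the neighbour signal was not tested. The 17 neighbouring blanks had medians of 0.15 and 0.43 units (lateral OBP-801 and saline) and -0.36 and -0.74 units (ventral OBP-801 and saline).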

How the results depend on the processing

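Of 33 recomputed values, 25 stayed close to the value reported. Close means within 1.5 times the count reported or, for medians and shares, within the larger SD of repeat spots of the 2 controls. The SD over repeat spots of 1 probe is not the error of a median or share over 131 genes. Of these 25, 1 changed sign, the median ventral ratio, which was -0.06 with normexp and loess against 0.03. That change was larger than the SD of the first control on the ventral array, 0.08, and smaller than that of the second, 0.12. Several of the 25 could hardly have moved, so their number does not measure robustness. The authors' deposited values differ from the main ratios only by a constant. A net minimum of 100 units lay far below the lowest net signal of the members, 5600 units. The number of bright, steady genes was 62 at a rank limit of 100, 208 at a rank limit of 300 and 22 without centring, of which 16 were among the 131. It was 109 with local background subtracted, of which 80 were among the 131, and 131 with loess, of which 128 were; the 3 lost ranked 1, 3 and 21 in brightness. The median lateral ratio of OBP-801 over saline was -0.0309 with normexp and loess against 0.14, and the cause was not tested. The median lobe ratio was 0.0402 with normexp, loess and Aquantile and 0.433 in OBP-801 RNA. The share of signal in lateral OBP-801 RNA was 27.8% with local background subtracted and 23.9% with no subtraction. Leaving out members over 30000 units, the lobe ratios with normexp but no Aquantile (0.22, and 0.26 with loess) and centring the limits on the bright genes (129 members) were chosen after seeing the data. The planned counts of ribosomal protein genes were not run, because no symbol was matched. No paired analysis was possible because only 1 array was made for each lobe.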
